A study of Homo sapiens with 12 samples.

Results

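Acute-phase proteins are plasma proteins whose level changes during inflammation, and 10 genes of secreted ones were looked up by symbol: LBP, LRG1, SAA1, SAA2, ORM1, HP, SERPINA1, SERPINA3, LCN2 and CP. Of the 19251 genes in the tables used here, 5 were among these: LBP, LRG1, SAA1, SERPINA1 and CP. The other 5 (SAA2, ORM1, HP, SERPINA3 and LCN2) had no row in these tables and were not analysed here. The near copies and neighbours that could share reads with them (SAA4, SAA3P, SAA2-SAA4, ORM2, HPR and SERPINA2) had no row either. RNA sequencing had been made from 2 established human ovarian cancer lines, both given as wild type: CAOV3, labelled epithelial of high grade serous type, and TOV21G, labelled epithelial of clear type. Each line was left untreated (control) or exposed for 16 h to 10% ovarian cancer ascites (peritoneal fluid), added as 150 µL to 1.5 mL of medium with 10% fetal bovine serum, in wells seeded with 250000 cells. There were 3 libraries in each of the 4 groups. The labels give no donor or pooling of the ascites and no fluid added to the control wells, and each tumour type was represented by 1 line.

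The acute-phase response is best known in the liver. There interleukin-6 and related cytokines signal through the shared receptor chain gp130 (IL6ST) to JAK kinases and the transcription factor STAT3, while interleukin-1 and tumour necrosis factor signal to NF-kB, and C/EBP factors act on many of the same promoters. Liver-enriched transcription factors set the basal level of several of these genes, and epithelial cells outside the liver can also transcribe some of them.

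The recovered reads totalled 26697609 to 34491304 per library. All 6 epithelial markers had a mean of at least 10 normalised read counts in each group, with a summed level of 135464 to 166859 in CAOV3 and 10437 to 12457 in TOV21G. Nothing in the labels says that the 3 libraries of a group came from separate cultures, so p-values measure the spread between these libraries, which may be technical.

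Ascites raised LBP, SERPINA1 and LRG1 in CAOV3, whereas no gene of the set passed the test in TOV21G. The count in CAOV3 was 3 of 5 higher and 0 lower at an adjusted p under 0.05, against 0.636% of the 17616 tested genes called higher, 1.1% called lower and 1.73% called in either direction. The ascites libraries lay wholly above the controls in CAOV3 for 4 of 5 genes, against 11.4% of tested genes, and wholly below for 0 of 5, against 12.8% (24.2% in either direction). The median log2 fold change of the 5 genes was 1.34, beside 0.00 over all tested genes. LBP was tested only through its CAOV3 ascites libraries, since the filter asks for at least 10 in at least 3 libraries. The genes were also chosen with earlier results of these data known, so these counts describe the set and are no independent test. In TOV21G the count was 0 of 5, where 0.142% of tested genes were called higher, 0.267% lower and 0.409% in either direction, and the median was -0.22, beside -0.02 over all. The ascites libraries of TOV21G lay wholly above the controls for 0 of 5 genes (4.16% of tested genes) and wholly below for 1 of 5 (6.99%, and 11.1% in either direction). With the fit over all libraries 0 of the 5 had an unadjusted p under 0.05 in TOV21G, beside 1615 of all 17616 tested genes. There edgeR called 0 of 5, beside 114 over all tested genes. DESeq2, with 151 called over all, called neither LRG1 nor SERPINA1 and gave LBP, SAA1 and CP no adjusted p. The untreated lines differed more: LRG1, SERPINA1 and SAA1 stood far higher in TOV21G. Values are the deposited normalised read counts, fold changes are differences of log2(value + 1), and p-values come from limma, adjusted over all tested genes. Since the + 1 pulls low values together, fold changes of genes with few reads can be understated. This did not hold for CP in TOV21G, at -0.43 with limma, -0.27 with edgeR and -0.29 with DESeq2.

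**Figure D1:**
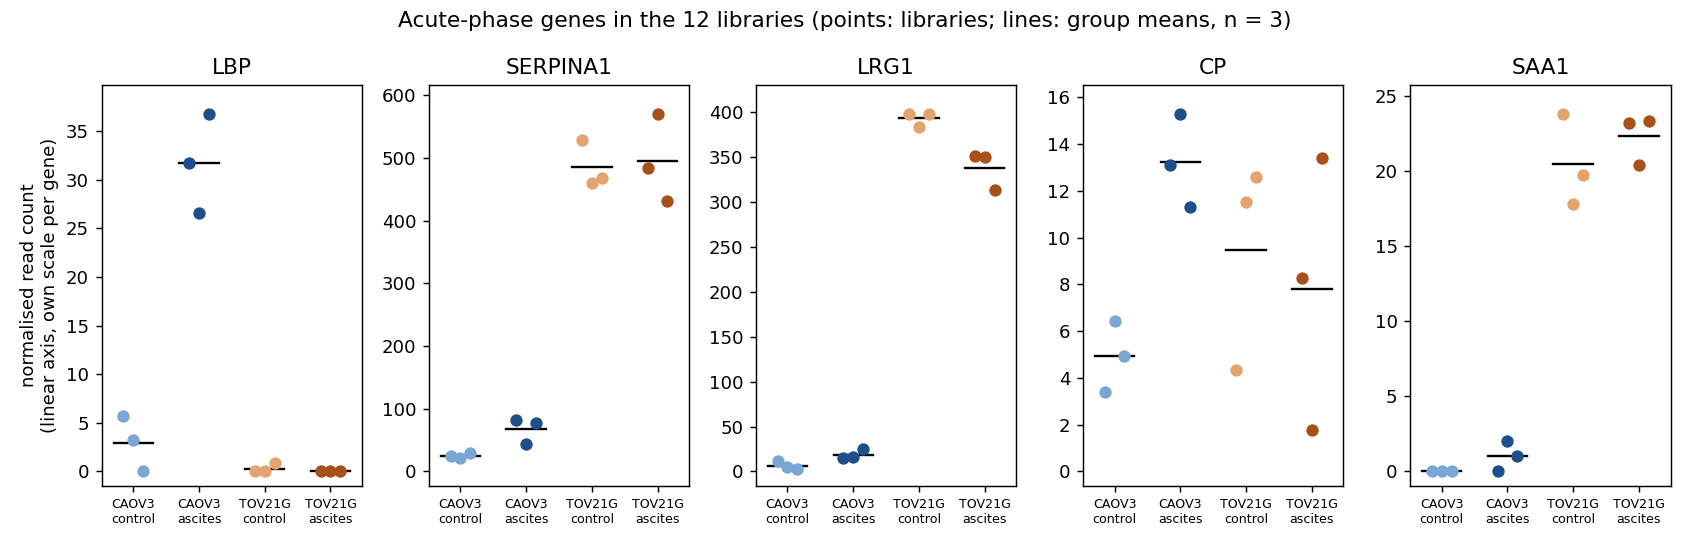
Normalised read count (linear vertical axis, own scale for each gene) of the 5 acute-phase genes in the 12 libraries; points are libraries and lines are group means of 3. LBP reached 26.6 to 36.8 in the CAOV3 ascites libraries and at most 5.67 elsewhere, while SERPINA1, LRG1 and SAA1 were far higher in TOV21G than in CAOV3.

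LBP encodes lipopolysaccharide-binding protein, which carries bacterial lipopolysaccharide to CD14 and the receptor TLR4 with its partner MD-2 (LY96). The gene (ENSG00000129988) lies on chromosome 20, 38346356 to 38377023 on the plus strand, and overlaps no other annotated gene. It stood at 5.67, 3.23 and 0 normalised read counts in the CAOV3 control libraries, which are 5, 3 and 0 reads. In the CAOV3 ascites libraries it stood at 31.7, 26.6 and 36.8, from 29, 26 and 36 reads. Every ascites library therefore lay above every control, and the means were 2.97 ± 2.85 and 31.7 ± 5.12 (SD, n = 3). The log2 fold change was 3.41 (SE 0.55, 95% interval 2.22 to 4.60, adjusted p 0.00557). As a ratio of summed reads per size factor, LBP was 11.2 times higher in ascites, with an exact 95% interval of 5.44 to 26.7 that covers counting error only. The log2 fold change was smaller, 2.61, without CAOV3 control replicate 3, the library with 0 reads, and 2.26 with a pseudocount of 5. The call held in all 9 other settings that gave the gene an adjusted p and in all 9 fits without 1 library that tested it. Those 9 fits all kept the 3 CAOV3 ascites libraries. Without any 1 of these LBP fell below the filter, so how far the call rests on a single one of them was not tested. A filter at 50 removed LBP, and DESeq2 gave it no adjusted p in CAOV3 (log2 fold change 3.46, DESeq2 unadjusted p 9.95e-07). The 3 CAOV3 ascites libraries were the only ones with a value of at least 10, so LBP met the filter on low values (at least 10 in at least 3 libraries) through the group where it was high. Without the filter the adjusted p was 0.00738.

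In TOV21G, LBP had 1 read in control replicate 3 and 0 reads in the other 5 libraries. A count of 0 allows up to 3 reads, which is 2.48 to 3.25 normalised read counts in those 5 libraries. All TOV21G libraries thus lay below the lowest CAOV3 ascites library. A change with ascites within these few reads could not have been detected at this depth. In CAOV3, LBP's partners were transcribed in both conditions. TLR4 stood at 1211 ± 70.7 and 966 ± 68 in control and ascites, CD14 at 81.3 ± 9.03 and 74.8 ± 9.66, and LY96 at 17.3 ± 0.413 and 23.3 ± 3.75, and none of these was called by limma, while edgeR and DESeq2 called TLR4 lower. In TOV21G controls TLR4 stood at 3.57 ± 1.65, CD14 at 11 ± 2.38 and LY96 at 0.897 ± 1.55.

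SERPINA1 encodes alpha-1-antitrypsin, the main plasma inhibitor of neutrophil elastase. The gene (ENSG00000197249) lies on chromosome 14, 94376747 to 94390693 on the minus strand, and overlaps no other annotated gene. In CAOV3 it stood at 25, 21.5 and 29.7 normalised read counts in the controls and at 82, 44 and 76.7 in the ascites libraries. The groups did not overlap, and ascites replicate 2 was the lowest of its group. The means were 25.4 ± 4.11 and 67.6 ± 20.6 (SD, n = 3), with a log2 fold change of 1.34 (SE 0.21, 95% interval 0.90 to 1.78, adjusted p 0.00407). The ratio of summed reads was 2.64 (exact 95% interval 2 to 3.5, counting error only). SERPINA1 was called in all 11 other settings and all 12 fits without 1 library. Leaving out CAOV3 ascites replicate 3 brought it nearest to the threshold (adjusted p 0.0259).

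In TOV21G the same gene stood at 529, 460 and 468 in controls and at 484, 571 and 431 after ascites. The groups overlapped, and the log2 fold change was 0.02 with a 95% interval of -0.42 to 0.46, so a rise as large as the 1.34 of CAOV3 lay outside the interval. Untreated TOV21G cells held more SERPINA1 than ascites-treated CAOV3 cells in every library.

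LRG1 encodes leucine-rich alpha-2-glycoprotein, a secreted protein that modulates TGF-beta signalling in endothelium through endoglin (ENG). The gene (ENSG00000171236) lies on chromosome 19, 4536409 to 4540474 on the minus strand, and overlaps AC011498.4 on the same strand, so its counts are uncertain to that extent. In CAOV3 it stood at 11.3, 5.38 and 2.97 normalised read counts in the controls, from 10, 5 and 3 reads. In the ascites libraries it stood at 15.3, 16.4 and 24.6, from 14, 16 and 24 reads. All ascites libraries lay above all controls, with means of 6.57 ± 4.31 and 18.7 ± 5.06 (SD, n = 3). The log2 fold change was 1.51 (SE 0.31, 95% interval 0.83 to 2.19, adjusted p 0.0284), and the ratio of summed reads was 2.95 (exact 95% interval 1.7 to 5.34, counting error only). This call was the least stable of the 3. It was lost in 7 of the 12 fits without 1 library, namely without CAOV3 control replicate 2 or 3, CAOV3 ascites replicate 1, 2 or 3, TOV21G control replicate 3 or TOV21G ascites replicate 1, with adjusted p-values of 0.0515 to 0.121. Of the 11 other settings 10 kept it, and the replicate block did not (adjusted p 0.154).

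In TOV21G, LRG1 stood at 398, 383 and 397 in controls and at 351, 350 and 313 after ascites, all 3 below the controls. The means were 392 ± 8.41 and 338 ± 21.5 (SD, n = 3), and the log2 fold change of -0.22 had a 95% interval of -0.89 to 0.46 and an adjusted p of 0.852. The ratio of summed reads was 0.862 (exact 95% interval 0.794 to 0.936), which covers counting error only. The limma spread of LRG1 was shared over both lines, and with the TOV21G libraries fitted alone the unadjusted p was 0.0172 and the adjusted p 0.698. ENG rose in CAOV3 from 355 ± 9.81 to 439 ± 34.9 (log2 fold change 0.30, adjusted p 0.0394) and stood at 2375 ± 107 and 2251 ± 172 in TOV21G (adjusted p 0.729).

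CP encodes ceruloplasmin, the copper-carrying ferroxidase of plasma. The gene (ENSG00000047457) lies on chromosome 3, 149162410 to 149222055 on the minus strand. It overlaps HPS3 on the opposite strand, which had 2185 ± 178 normalised read counts in CAOV3 controls, and the strand setting of the counting was not given. CP counts were few in all groups. In CAOV3 it stood at 3.4, 6.45 and 4.95 in controls and at 13.1, 15.3 and 11.3 in ascites, without overlap. The log2 fold change was 1.29 (SE 0.53, 95% interval 0.15 to 2.42) and missed the threshold (p 0.0299, adjusted p 0.316), and the ratio of summed reads was 2.67 (exact 95% interval 1.41 to 5.33, counting error only). HPS3 stood at 2164 ± 93.8 in the same ascites libraries.

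In TOV21G, CP stood at 4.34, 11.5 and 12.6 in controls and at 8.28, 1.77 and 13.4 after ascites, so the groups overlapped widely (adjusted p 0.819). The lowest library of each group, control replicate 1 and ascites replicate 2, also had the lowest KCNQ1OT1, a nuclear RNA, of its group, at 95.4 against 234 and 656, and at 235 against 731 and 1511. Whether this has a part in the CP values was not tested. Without those libraries the spread shared by both lines shrank, and CP was called in CAOV3 (adjusted p 0.0315, same log2 fold change) and between the untreated lines (log2 difference 1.17, adjusted p 0.00458), a setting chosen after the values were seen. With the CAOV3 libraries fitted alone the adjusted p of CP was 0.0568.

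SAA1 encodes serum amyloid A1, a lipoprotein-bound protein that rises steeply in plasma during infection. The gene (ENSG00000173432) lies on chromosome 11, 18266174 to 18269977 on the plus strand, and overlaps RNA5SP334 on the same strand. It has a near-identical copy in SAA2, with which reads could have been shared or lost. In CAOV3 it had 0 reads in all 3 controls and 0, 2 and 1 reads after ascites. These counts lie within the 3 reads that a count of 0 allows, and SAA1 was not called (p 0.0271, adjusted p 0.299). Without ascites replicate 1, the library with 0 reads, the adjusted p was 0.0499. In TOV21G it stood at 23.8, 17.8 and 19.7 normalised read counts in controls and at 23.2, 20.4 and 23.3 after ascites. Those groups overlapped (log2 fold change 0.12, 95% interval -0.63 to 0.88). SAA1 passed the filter on low values through TOV21G alone.

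**Figure D2:**
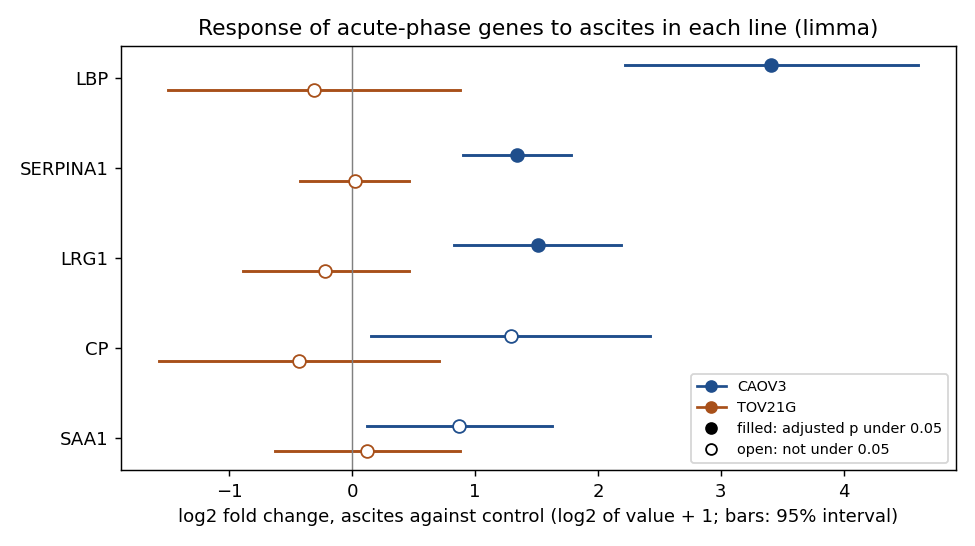
Log2 fold change of ascites against control (horizontal axis, log2 of value + 1) for the 5 genes in CAOV3 (blue) and TOV21G (orange), with 95% intervals from limma; filled points have an adjusted p under 0.05. The CAOV3 intervals lie above 0 for all 5 genes and only LBP, SERPINA1 and LRG1 are filled, whereas each TOV21G interval holds 0.

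The difference between the responses was tested itself. TOV21G minus CAOV3, it was -3.72 for LBP (SE 0.78, adjusted p 0.0573), -1.73 for LRG1 (SE 0.44, adjusted p 0.144) and -1.32 for SERPINA1 (SE 0.29, adjusted p 0.0764). It was -1.72 for CP (SE 0.74, adjusted p 0.401) and -0.75 for SAA1 (SE 0.50, adjusted p 0.546). With limma 0 of 5 genes were therefore called for a different response, against 0.238% of tested genes called higher, 0.307% lower and 0.545% in either direction, although 4 of 5 had an unadjusted p under 0.05 (2091 of 17616 over all). The count tests on recovered reads each called 2 genes, LRG1 and SERPINA1. Over all tested genes edgeR called 148 for the difference and DESeq2 210. Of the 5 genes, DESeq2 gave an adjusted p to these 2 alone. For LRG1 the adjusted p was 0.0328 with edgeR and 0.00352 with DESeq2, and for SERPINA1 it was 0.0241 and 8.44e-05. LBP was not called by edgeR (adjusted p 0.435), and DESeq2 gave it no adjusted p.

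Between the untreated lines, LRG1, SERPINA1 and SAA1 were higher in TOV21G, in a comparison where 82.2% of tested genes were called, 40.8% higher and 41.4% lower in TOV21G. The 3 of 5 genes called higher and the 1 called lower are to be read against those shares. The libraries of the lines lay apart for the same 3 genes, all higher in TOV21G, and for 82.6% of tested genes (40.9% higher, 41.7% lower). The mean of LRG1 was 6.57 in CAOV3 and 392 in TOV21G, a log2 difference of 5.86 (SE 0.31, adjusted p 5.82e-10) and a ratio of summed reads of 61.5 (exact 95% interval 38.8 to 104). For SERPINA1 the means were 25.4 and 486, the log2 difference 4.21 (SE 0.21, adjusted p 2.12e-10) and the ratio 19 (15 to 24.4). SAA1 had 0 reads in CAOV3 controls and 61 in TOV21G controls, at least 15.1-fold higher by the exact 95% lower limit of the ratio and 19.2-fold against a floor of 3 reads summed over the CAOV3 group (log2 difference 4.41, adjusted p 4.13e-08). The log2 difference of SAA1 was 2.34 with a pseudocount of 5 and 7.37 with edgeR, since it depends on the value given to a count of 0. LBP was the gene called lower in TOV21G, with 1 read against 8 (log2 difference -1.30, adjusted p 0.0428). Its libraries overlapped at values near 0, the ratio of 8.48 in favour of CAOV3 had an exact 95% interval of 1.14 to 376, and it was called by DESeq2 (adjusted p 0.0356) but not by edgeR (adjusted p 0.0526). The log2 difference was -2.69 with edgeR, -3.00 with DESeq2, -0.52 with a pseudocount of 5 and -2.10 without CAOV3 control replicate 3. Of the 9 fits without 1 library that tested it, 7 lost the call, and those without CAOV3 control replicate 3 or TOV21G control replicate 3 kept it. Without CAOV3 control replicate 1 the adjusted p was 0.215. CP did not pass the test (log2 difference 0.74, 95% interval -0.40 to 1.88, adjusted p 0.208).

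Per length of annotated exons the order of the genes differed between the lines. In TOV21G controls LRG1 stood at 4.28 ± 0.022 RPKM (reads per kb of exon, scaled to the reads of the library) and SERPINA1 at 3.38 ± 0.202 (SD, n = 3), with no overlap of their libraries. They were followed, each without overlap, by SAA1 at 0.877 ± 0.114, CP at 0.0446 ± 0.0214 and LBP at 0.00518 ± 0.00897. After ascites in TOV21G, LRG1 at 3.77 ± 0.159 and SERPINA1 at 3.52 ± 0.385 overlapped. In CAOV3 controls SERPINA1 was first at 0.17 ± 0.0263, above all libraries of LRG1 at 0.069 ± 0.0456. LBP at 0.0499 ± 0.0479 overlapped LRG1, CP at 0.0222 ± 0.00687 lay below every LRG1 library and within the range of LBP, and SAA1 had 0 reads. After ascites LBP in CAOV3 reached 0.524 ± 0.0828 RPKM, overlapping SERPINA1 at 0.447 ± 0.135, while LRG1 was at 0.194 ± 0.0517 and CP at 0.0588 ± 0.00931. Even then SERPINA1, LRG1 and SAA1 were lower in every CAOV3 library than in any TOV21G library.

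**Figure D3:**
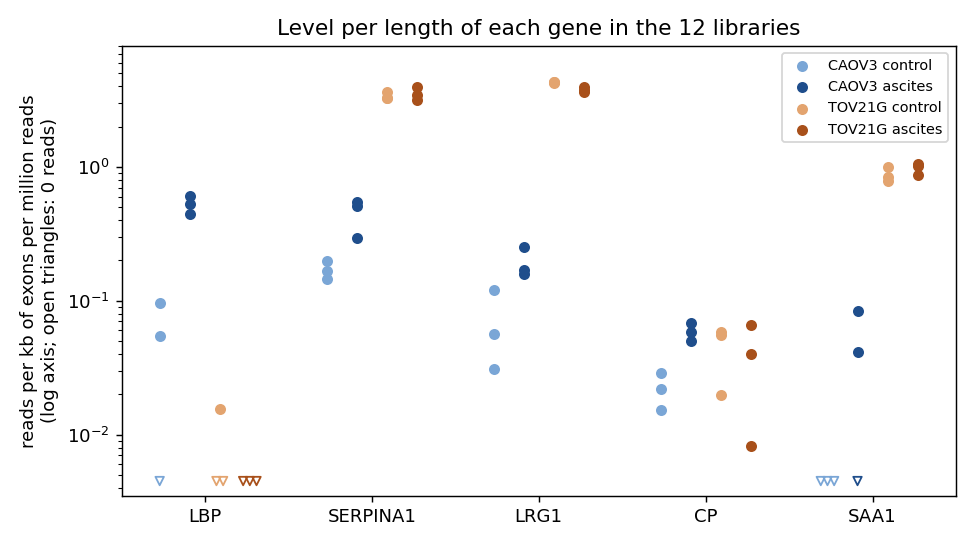
RPKM over annotated exons (log vertical axis) for the 5 genes, 1 point per library coloured by group; open triangles mark libraries with 0 reads. LRG1 and SERPINA1 in TOV21G stand above 3, and LBP and SERPINA1 in CAOV3 ascites between 0.292 and 0.607.

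The promoters of LRG1 and SERPINA1 are shown because both genes were called higher in CAOV3. LBP was called there too, but no promoter of it was among the sequences searched. RefSeq (GRCh38.p14) windows of 250 bases before to 50 bases after a start were matched by symbol for 5 of the 10 genes (LRG1, SERPINA1, ORM1, SERPINA3 and LCN2), and those of LRG1 (chr19:4539987-4540286, minus strand) and SERPINA1 (chr14:94390586-94390885 and chr14:94388553-94388852, minus strand) are printed 5′ to 3′. Capitals mark matches on either strand to the STAT palindrome TTCNNNGAA, the C/EBP core TTNNGNAA or the NF-kB consensus.
LRG1: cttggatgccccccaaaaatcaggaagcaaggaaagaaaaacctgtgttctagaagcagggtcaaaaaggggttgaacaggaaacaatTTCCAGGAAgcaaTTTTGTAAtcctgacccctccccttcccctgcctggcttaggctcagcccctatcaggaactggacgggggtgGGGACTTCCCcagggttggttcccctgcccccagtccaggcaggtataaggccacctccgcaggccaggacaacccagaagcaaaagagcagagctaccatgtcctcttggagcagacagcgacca
SERPINA1 upstream start: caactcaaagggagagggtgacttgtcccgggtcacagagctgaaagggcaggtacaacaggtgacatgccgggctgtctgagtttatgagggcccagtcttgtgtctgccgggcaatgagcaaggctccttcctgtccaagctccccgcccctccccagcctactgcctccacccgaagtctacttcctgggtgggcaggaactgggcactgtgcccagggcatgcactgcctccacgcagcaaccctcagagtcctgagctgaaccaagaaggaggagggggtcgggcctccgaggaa
SERPINA1 downstream start: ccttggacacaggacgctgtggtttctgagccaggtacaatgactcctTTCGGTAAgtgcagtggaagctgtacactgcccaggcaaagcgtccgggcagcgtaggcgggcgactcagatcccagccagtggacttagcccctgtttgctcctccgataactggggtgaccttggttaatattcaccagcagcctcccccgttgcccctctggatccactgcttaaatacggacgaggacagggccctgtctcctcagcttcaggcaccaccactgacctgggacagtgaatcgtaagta
The LRG1 window held 1 STAT palindrome (TTCCAGGAA, positions -162 to -154), 1 C/EBP core (TTTTGTAA, -149 to -142) and 1 NF-kB match (GGGACTTCCC, -76 to -67), counted back from the base before the start. Of the 35116 windows of this length, 7.66% held the STAT palindrome, 36.8% the C/EBP core and 5.91% the NF-kB consensus. The upstream SERPINA1 window held none of these motifs, and the downstream window held 1 C/EBP core (TTCGGTAA, -202 to -195). No marked matches overlapped. These are matches of letters, not measured binding.

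Further acute-phase genes also rose in CAOV3. Of 30 further genes that rise in the acute phase, 16 had a row and 13 were tested. Of these, 4 rose and 0 fell in CAOV3, with a median log2 fold change of 0.23. Over all tested genes 0.636% were called higher there and 1.1% lower. The 4 were FGA and FGB, which encode fibrinogen chains, C3, the central complement component, and AGT, the precursor of angiotensin. C3 rose from 3.52 ± 2.13 to 15.7 ± 2.99 normalised read counts (log2 fold change 2.01, adjusted p 0.00305), and AGT from 3.94 ± 0.847 to 32.9 ± 5.34 (2.78, adjusted p 0.000106). AGT, at most 4.54 in CAOV3 controls and 0 in TOV21G, met the filter on low values through CAOV3 ascites alone. DESeq2 did not call AGT in CAOV3. It gave LBP, SAA1 and CP no adjusted p there, and whether it gave AGT one is not reported here. FGB rose from 83 ± 19.4 to 1153 ± 125 (3.80, adjusted p 9.18e-09), and FGA by a log2 fold change of 3.06 (adjusted p 2.49e-07). In TOV21G 2 of 13 rose and 0 fell, beside 0.142% of all tested genes called higher and 0.267% lower. The 2 were others: PTX3, a soluble pattern recognition protein, from 1785 ± 77.8 to 2502 ± 201 (0.48, adjusted p 0.0387), and SOD2, the mitochondrial superoxide dismutase, from 3073 ± 34.9 to 3924 ± 172 (0.35, adjusted p 0.00524). C3, at 5170 ± 206 and 6026 ± 305 there, was called by edgeR and DESeq2 but not by limma (adjusted p 0.84). Of 12 genes that fall in the acute phase, such as albumin and transthyretin, 6 were tested and 0 were called in either line by limma, edgeR or DESeq2, 0 had an unadjusted p under 0.05, and the medians were -0.08 in CAOV3 and 0.03 in TOV21G. This list and the ones below were chosen with results of these data known.

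Upstream of the genes, 2 of 17 tested cytokines and receptors rose in CAOV3 and 0 fell, beside 0.636% and 1.1% of all tested genes. The receptor chain IL6ST went from 3109 ± 141 to 3702 ± 99.6 (log2 fold change 0.25, adjusted p 0.0056). The interleukin-1 receptor IL1R1 went from 2.08 ± 1.99 to 10.1 ± 2.07 (2.11, adjusted p 0.0351), a call that neither count tool made. IL6R stood at 331 ± 5.6 and 276 ± 20.7 in CAOV3 (adjusted p 0.375) and at 66.6 ± 9.17 in TOV21G controls. OSMR, the oncostatin M receptor, separated the lines, with 2.09 ± 0.919 in CAOV3 controls and 3882 ± 32.4 in TOV21G controls. IL6 itself had 0 reads in CAOV3 controls and stood at 524 ± 41.9 in TOV21G controls and 840 ± 14.5 in TOV21G ascites (adjusted p 0.545). In TOV21G limma called 0 of these 17, beside 0.409% of all tested genes in either direction. An unadjusted p under 0.05 was seen for 4 of them and for 1615 of all 17616. There edgeR and DESeq2 each called 2 higher, IL6 and TNF, beside 51 and 53 called higher over all genes.

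Among 28 signalling and transcription factors, 3 rose and 0 fell in CAOV3 by limma, beside 0.636% and 1.1% of all tested genes. The feedback inhibitor SOCS3 rose from 151 ± 10 to 444 ± 25 (log2 fold change 1.55, adjusted p 3.78e-06). CEBPD rose from 99.4 ± 9.5 to 163 ± 6.58 (0.71, adjusted p 0.00063) and STAT3 from 1806 ± 47.7 to 2431 ± 82 (0.43, adjusted p 0.000175). CEBPB stood at 1646 ± 95.9 and 1921 ± 82.9 (adjusted p 0.155) and NFKBIZ at 582 ± 54.5 and 681 ± 37.9 (adjusted p 0.152). The count tools called 5 higher, these 3 with CEBPB and BCL3, and 2 lower, HNF4A and FOXA1. Over all genes edgeR called 202 higher and 309 lower in CAOV3, and DESeq2 188 and 319. In TOV21G limma called 0 of 28 higher, with 7 at an unadjusted p under 0.05 in either direction. Over all tested genes limma called 0.142% higher and 0.267% lower in TOV21G. FOXA2 fell there from 17.3 ± 2.53 to 8.37 ± 2.7 (adjusted p 0.0351), a call that neither count tool made. Instead edgeR and DESeq2 each called 4 members of the NF-kB pathway higher in TOV21G: NFKB2, RELB, NFKBIA and NFKBIZ. STAT3 stood at 7532 ± 350 in TOV21G controls and CEBPD at 1320 ± 122, each above its CAOV3 ascites level. The liver-enriched factor HNF4A stood at 2473 ± 49.9 in CAOV3 controls and 19.1 ± 2.54 in TOV21G controls. Of 10 tested partners and receptors of the proteins, ENG alone was called by limma in CAOV3, and 0 were called in TOV21G, with 2 at an unadjusted p under 0.05. There edgeR called 0 and DESeq2 called HMOX1 lower.

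**Figure D4:**
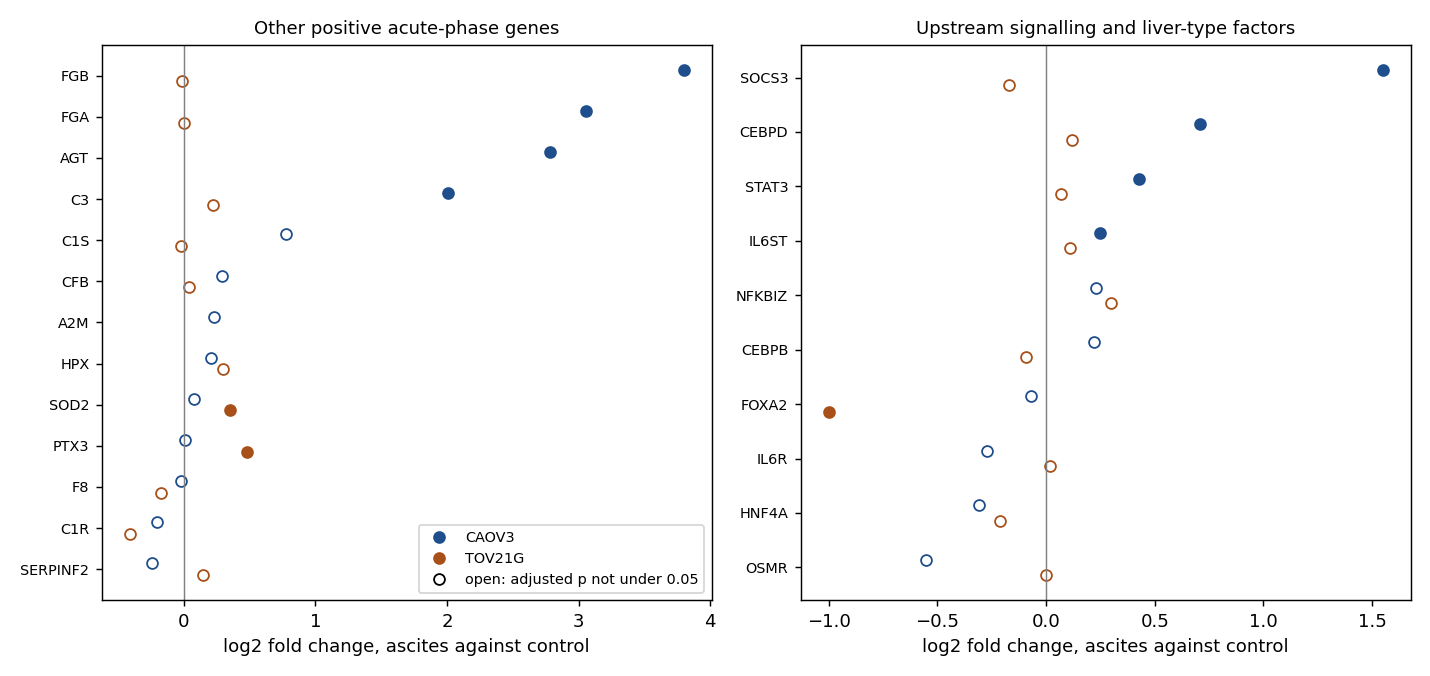
Log2 fold change of ascites against control (horizontal axis) for the tested genes of the list of other acute-phase genes (left) and for the upstream genes (right), in CAOV3 (blue) and TOV21G (orange); filled points have an adjusted p under 0.05, and a line in which a gene had 0 reads throughout has no point. FGB, FGA, AGT and C3 on the left and SOCS3, CEBPD, STAT3 and IL6ST on the right are filled in CAOV3, against PTX3, SOD2 and FOXA2 in TOV21G.

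The genes whose profile over the 12 libraries lay nearest to each called gene were found by Euclidean distance between log2 values taken relative to the controls of each line. Nearest to LBP were CFI (distance 1.28), HTR3A (2.19) and AGT (2.21), out of 17611 genes. CFI, which encodes complement factor I, went from 1.87 to 24.7 normalised read counts in CAOV3 and had 0 in TOV21G. Since these genes were picked for a profile like that of a gene that rose in CAOV3, their own rise is a description. Nearest to SERPINA1 were APOL1 (0.675), TMEM176B (0.73) and MUC1 (0.731). APOL1 had means of 100 and 231 in CAOV3 and of 1977 and 1962 in TOV21G. Nearest to LRG1 were ACTG1P14 (0.914), OAS2 (1.04) and SOCS3 (1.15).

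Markers of cells that ascites or a mixed culture could hold were read beside these results, and a change in the number of cells cannot be told apart from a change in RNA per cell in such bulk samples. None of the 9 neutrophil markers and none of the 5 red cell and platelet markers had a row. Of 10 hepatocyte markers 6 had a row, with a summed level of 366 to 393 normalised read counts in CAOV3 controls, 304 to 350 in CAOV3 ascites, 22 to 44 in TOV21G controls and 33.1 to 42.2 in TOV21G ascites, and ALB, TTR and APOH were at 0 in TOV21G. Of 8 monocyte and macrophage markers 3 had a row, at 123 to 144 and 104 to 135 in CAOV3 and at 41.9 to 64 and 61.9 to 65.4 in TOV21G, where LYZ was at 0. Of 6 lymphocyte markers only CD79A had a row, at 66.3 to 94.7 and 71.1 to 107 in CAOV3. It stood at 0 to 4.19 and 1.77 to 3.58 in TOV21G. The 4 of 5 mesothelial markers with a row summed to 62.4 to 76.2 and 47 to 68.5 in CAOV3 and to 586 to 659 and 583 to 639 in TOV21G. The 5 of 6 fibroblast markers with a row summed to 5157 to 5981 and 4914 to 5055 in CAOV3 and to 12549 to 13084 and 11261 to 11694 in TOV21G, led there by COL1A2. Only 2 of the 5 had a mean of at least 10 in TOV21G controls, COL1A2 at 10854 ± 308 and COL1A1 at 1945 ± 110. In CAOV3 controls these stood at 2.46 ± 0.442 and 308 ± 20.2. LUM, PDGFRA and PDGFRB went the other way, at 0, 1.07 and 3.89 in TOV21G controls and 4196, 1005 and 21.3 in CAOV3 controls. The fibroblast sum of TOV21G controls lay above the 11059 to 12457 of the epithelial markers. These sums of different genes were not scaled for length. The part of the fibroblast markers in the differences between the lines was not tested. The epithelial markers summed to 135464 to 136806 in CAOV3 controls and to 157589 to 166859 in CAOV3 ascites, where KRT8 (log2 fold change 0.29, adjusted p 0.0231) and KRT18 (0.33, adjusted p 0.0102) rose. The part of the epithelial markers in the rise of the acute-phase genes was not tested.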

How the data were processed

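Each of the 12 libraries had 1 deposited table. The submitters' processing notes name Trim Galore, cutadapt, STAR, HTSeq and DESeq. Their versions and order, the genome build, the annotation and the strand setting are not given in the sources used here. The values the authors deposited are a normalised signal: in every library 100% of them were whole multiples of 1 step (tolerance 0.001 reads), and the reciprocal of the step matched a median-of-ratios size factor over all 12 libraries, so whole reads were recovered by division. Every listed gene had at least 10 reads in its highest library.

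Gene symbols came from a table of gene names (19087 genes) or GENCODE release 29 (136), and 28 stayed unnamed; positions and exon lengths are those of GENCODE 29 on GRCh38 and entered no test. All 12 libraries entered 1 limma 3.58.1 fit (R 4.3.3, variance trend) of log2(value + 1), with a mean per group, over 17616 genes at 10 or more in at least 3 libraries, and 4 contrasts. P-values are two-sided, Benjamini-Hochberg adjusted within a contrast, and called under 0.05. Alternatives were edgeR 4.0.16 and DESeq2 1.42.0 on recovered reads, other filters, pseudocounts, scaling, robust variances, single-line fits, a replicate block and leaving out each library. Replicates differed by more than read sampling (chi-square per degree of freedom 1.81 to 22.6), and none was a copy. Intervals on reads and floors of 3 reads cover counting error only. The 10 genes are always named, as are near copies and a fixed set of upstream genes, of which some are not reported here; other listed genes are named when called in a treatment comparison or as partners of a described protein, the latter, with KCNQ1OT1, HPS3, IL6 and genes called by the count tools, after their values were seen. The genes and lists were chosen with earlier results of these data known.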

Additional observations from a re-analysis of the deposited data

Results flagged for a closer look

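The response to ascites differed between the lines for 6 genes named from the lists beside the acute-phase set, by the limma test of the difference itself (TOV21G minus CAOV3). Over all tested genes 96 of 17616, or 0.545%, were called for it. The 6 were 3 of 13 further acute-phase genes, 2 of 28 signalling and transcription factors, and KRT8 among the epithelial markers. Called were 0 of 6 genes that fall in the acute phase, 0 of 17 cytokines and receptors and 0 of 10 partners. The log2 difference was -3.81 for FGB (SE 0.19, adjusted p 7.04e-07), -3.06 for FGA (SE 0.21, adjusted p 1.6e-05) and -2.78 for AGT (SE 0.37, adjusted p 0.0059). It was -1.73 for SOCS3 (SE 0.14, adjusted p 8.37e-05), -0.36 for STAT3 (SE 0.06, adjusted p 0.021) and -0.41 for the epithelial keratin KRT8 (SE 0.08, adjusted p 0.0483). AGT had 0 reads in all TOV21G libraries, so its difference is its CAOV3 change alone. It met the filter on low values only through the CAOV3 ascites libraries, where it was high. With edgeR and DESeq2 the calls differed: neither called AGT for the difference, and both called C3, SOD2 and CEBPD, which limma did not. Whether DESeq2 gave AGT an adjusted p for the difference is not reported here. LRG1 stood out in another way: all 3 ascites libraries lay above the controls in CAOV3 and all 3 lay below them in TOV21G, but its log2 difference of -1.73 (SE 0.44) did not pass the limma test (adjusted p 0.144). IL1RAP, the accessory chain of the interleukin-1 receptor, had the same pattern of libraries, with a log2 difference of -0.43 (SE 0.12, adjusted p 0.182) that DESeq2 called and limma and edgeR did not.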

How the results depend on the processing

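Over the 20 values that 5 genes gave in 4 comparisons, 170 of 185 other settings and 209 of 228 fits without 1 library kept the side of the threshold, and 0 turned the direction of a called value. For the different response between lines, where limma called 0 of 5, a pseudocount of 5 gave 1 called gene, and robust variances, edgeR and DESeq2 each gave 2; fits without 1 library gave 0 to 2, with 2 without CAOV3 control replicate 1 and 1 without CAOV3 control replicate 3 or ascites replicate 2. Between the untreated lines the count was 4, and 2 with the filter at 50, which tests fewer genes; fits without 1 library gave 3 to 4. In CAOV3 the count was 3, 4 without TOV21G control 1 and ascites 2 (CP added), and 1 to 3 without 1 library, with 1 called without CAOV3 ascites replicate 2 or 3. LBP falls below the filter there and without ascites replicate 1. Over all genes, 305 were called in CAOV3, and 511 with edgeR, 507 with DESeq2, 1295 with CAOV3 alone, 116 with the replicate block, 162 to 345 without 1 library, and 620 without TOV21G control 1 and ascites 2, a setting chosen after seeing the data. In TOV21G 72 were called, and 114 with edgeR, 151 with DESeq2, 22 with TOV21G alone, 13 with the block and 24 to 137 without 1 library. For the difference 96 were called, and 151 with TMM scaling, 148 with edgeR, 210 with DESeq2, 9 with the block, 188 without those libraries and 35 to 147 without 1 library. The cause was not tested. The labels do not say that replicate numbers pair libraries. The deviations of same-numbered control and ascites libraries correlated at -0.05, 0.05 and 0.02 in CAOV3 and -0.14, -0.43 and 0.03 in TOV21G. Differently numbered pairs gave -0.10 to 0.08 in CAOV3. In TOV21G control 1 gave 0.44 with ascites 2 and -0.35 with ascites 3. Control 2 gave 0.11 with ascites 1 and 0.35 with ascites 3, and control 3 gave 0.04 and -0.06 with ascites 1 and 2. The pair at 0.44 is the one left out together above, and the cause of that correlation was not tested. A replicate block left 2 genes called in CAOV3, LBP (adjusted p 0.0408) and SERPINA1 (0.00976), with LRG1 at 0.154, and 0 called in TOV21G and for the difference. For CP and SAA1, and for LBP outside CAOV3 ascites, a group held at most 77 reads, which limits what could be detected.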
